A study of Mus musculus with 6 samples.

Results

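A set of 10 genes of the mitochondrial death pathway was followed in RNA-Seq libraries from the injured mouse retina, 10 of 55573 gene identifiers in the table of raw counts. They were listed by name and role, by a rule that sets no threshold on measured values, although earlier results of these data were known when the list was made: the pore-forming *Bax* and *Bak1*, the BH3-only genes *Bbc3* (Puma), *Pmaip1* (Noxa), *Bcl2l11* (Bim) and *Hrk*, the pro-survival *Bcl2*, *Bcl2l1* (Bcl-xL) and *Mcl1*, and *Trp53*, which encodes p53. C57BL/6J mice, adult and of both sexes per the study's methods, received AAV2-*GFP* (control) or AAV2-*Ezh2* in the vitreous. All animals of both groups underwent optic nerve crush (ONC) 2 weeks later, and cells were sorted 3 days after the ONC, with 3 libraries per group. The libraries carry the label retinal ganglion cells (RGCs), but the sort gate was CD90.2, which *Thy1* encodes, with dye-stained dead cells removed. AAV2 in the vitreous also reaches other retinal cells, there is no uninjured group here, and nothing says that the replicates came from separate animals, so the p values measure only the spread between these libraries.

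In this pathway, Bax and Bak open the outer mitochondrial membrane, which releases cytochrome c and leads to caspase activation. Bcl-2, Bcl-xL and Mcl-1 hold them in check, and BH3-only proteins relieve that check. After axon injury, RGCs are known to die through Bax, downstream of kinase signaling that ends in Jun and of p53, both of which can induce BH3-only genes. Ezh2 is a histone H3 methyltransferase, the enzyme of Polycomb repression. The comparison asks whether mRNA levels of pro-death and pro-survival genes differed after *Ezh2* overexpression.

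Some facts on the libraries bear on every value below. *Ezh2* itself was counted 880 to 1094 times in GFP libraries and 2287 to 3770 times in Ezh2 libraries, a log2 fold change of 1.17 (SE 0.08, adjusted p = 2.97e-11 in edgeR). Ezh2 replicate 3 stood apart, at 76.5 on a first principal component on which the other Ezh2 libraries lay at 10.5 and 10.7 and the GFP libraries between -35.0 and -29.6. The study left out 1 Ezh2 library, inferred to be this one, so the main comparison used 5 libraries and all 6 were compared beside it. Of 8 RGC genes listed, the transcription factors that define RGCs were scarce: *Pou4f2* had 0 to 3 counts and *Pou4f1* 0 to 19. *Sncg* had 53 to 121 counts, *Nefm* 75 to 141, *Slc17a6* 125 to 294, *Nefl* 288 to 540, *Rbpms* 501 to 671 and *Thy1*, the gene of the sort antigen, 2760 to 4095. These levels stood in libraries of 30569933 to 35971192 counts, against 195889 to 302647 counts of the Müller glia gene *Glul* and 1742 to 3000 of the T cell gene *Cd3g*. RGC genes were thus detected but at far fewer counts than those of Müller glia, and genes of several cell types were present. A change in bulk RNA cannot tell fewer cells of a type from less RNA per cell.

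Bcl2l11 (upstream of the gene, plus strand, GRCm38 chr2:128125788-128126037) and Bbc3 (upstream of an internal start, plus strand, chr7:16310011-16310260) are the members for which the 250 bases before an annotated RefSeq start hold the Foxo-type motif GTAAACA on either strand, and they are shown because *Bcl2l11* had the largest difference of the 10 genes with 5 libraries and *Bbc3* is the other BH3-only gene with the motif. The third window belongs to *Cdkn1a*, the standard p53 target (plus strand, chr17:29090729-29090978), and carries a p53 element. Capitals mark the motif matches.
Bcl2l11: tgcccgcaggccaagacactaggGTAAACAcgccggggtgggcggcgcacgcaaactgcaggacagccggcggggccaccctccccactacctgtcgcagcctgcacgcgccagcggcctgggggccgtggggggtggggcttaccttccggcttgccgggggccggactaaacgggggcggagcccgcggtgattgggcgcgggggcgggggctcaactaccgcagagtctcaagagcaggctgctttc
Bbc3: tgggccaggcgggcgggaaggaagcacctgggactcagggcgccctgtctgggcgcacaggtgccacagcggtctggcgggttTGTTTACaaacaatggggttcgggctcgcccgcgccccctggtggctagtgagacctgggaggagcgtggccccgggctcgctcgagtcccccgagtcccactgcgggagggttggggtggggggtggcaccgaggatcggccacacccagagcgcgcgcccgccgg
Cdkn1a: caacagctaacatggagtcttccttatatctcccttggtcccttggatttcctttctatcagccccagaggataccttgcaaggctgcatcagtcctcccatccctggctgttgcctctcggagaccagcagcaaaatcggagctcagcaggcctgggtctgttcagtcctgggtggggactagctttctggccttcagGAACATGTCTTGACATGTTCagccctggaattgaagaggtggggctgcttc

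RefSeq windows (GRCm38.p6) were found for 9 of 10 members, 14 windows in all, and none was found for *Pmaip1*. The Foxo-type motif was in 2 of the 14 windows and in 3.17% of all 32851 windows of that length. In *Bbc3* it appears as its reverse complement. The AP-1 motif TGANTCA, the kind of site that Jun dimers bind, was in 0 of 14 member windows and in 6.75% of all windows. The p53 element, a run of 20 bases made of 2 adjoining half-sites with at most 1 mismatch, was in 0 of 14 member windows and in 0.0578% of all windows. These matches describe letters in short windows and say nothing of binding, which was not measured.

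The levels of the 10 genes were first ordered per length of exon, as RPKM (counts scaled to the library total and to exon length), in the GFP libraries. *Mcl1* was highest at 92.0 ± 3.60 (SD, n = 3). *Bcl2l1* followed at 18.9 ± 0.477 and *Bak1* at 11.3 ± 0.985. *Bax* lay at 9.48 ± 0.709 and *Trp53* at 7.51 ± 0.0982. *Bcl2l11* and *Bcl2*, at 5.21 ± 0.0267 and 5.07 ± 0.235, were the only neighbors in this order whose ranges over the 3 libraries overlapped. *Pmaip1* (4.07 ± 0.0969), *Bbc3* (1.77 ± 0.461) and *Hrk* (0.789 ± 0.132) were the lowest, so the scarcest members were all BH3-only genes. The order was the same in Ezh2 replicates 1 and 2. *Mcl1* alone made up 69.3% to 71.0% of the summed CPM (counts scaled to the library total alone) of the 3 pro-survival genes in GFP libraries, and 65.5% to 73.5% in Ezh2 libraries.

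Differences between the groups were small, and 8 of the 10 genes were fitted above 0. With 5 libraries, 4 of the 10 genes passed an adjusted p of 0.05, all higher after *Ezh2* overexpression: *Bcl2l11*, *Bak1*, *Trp53* and *Mcl1*. Among all 20241 tested genes, 10.1% passed in that direction. None of the 10 also exceeded the 1.5-fold change that the study required, where 3.8% of tested genes did in either direction, and 5 of the 10 had an unadjusted p under 0.05, as did 29.3% of tested genes. The median log2 fold change of the 10 genes was 0.24, beside -0.01 for all tested genes. For 6 of the 10, every Ezh2 value lay above every GFP value, which held for 21.5% of tested genes. All 10 passed the filter on low counts.

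**Figure D1:**
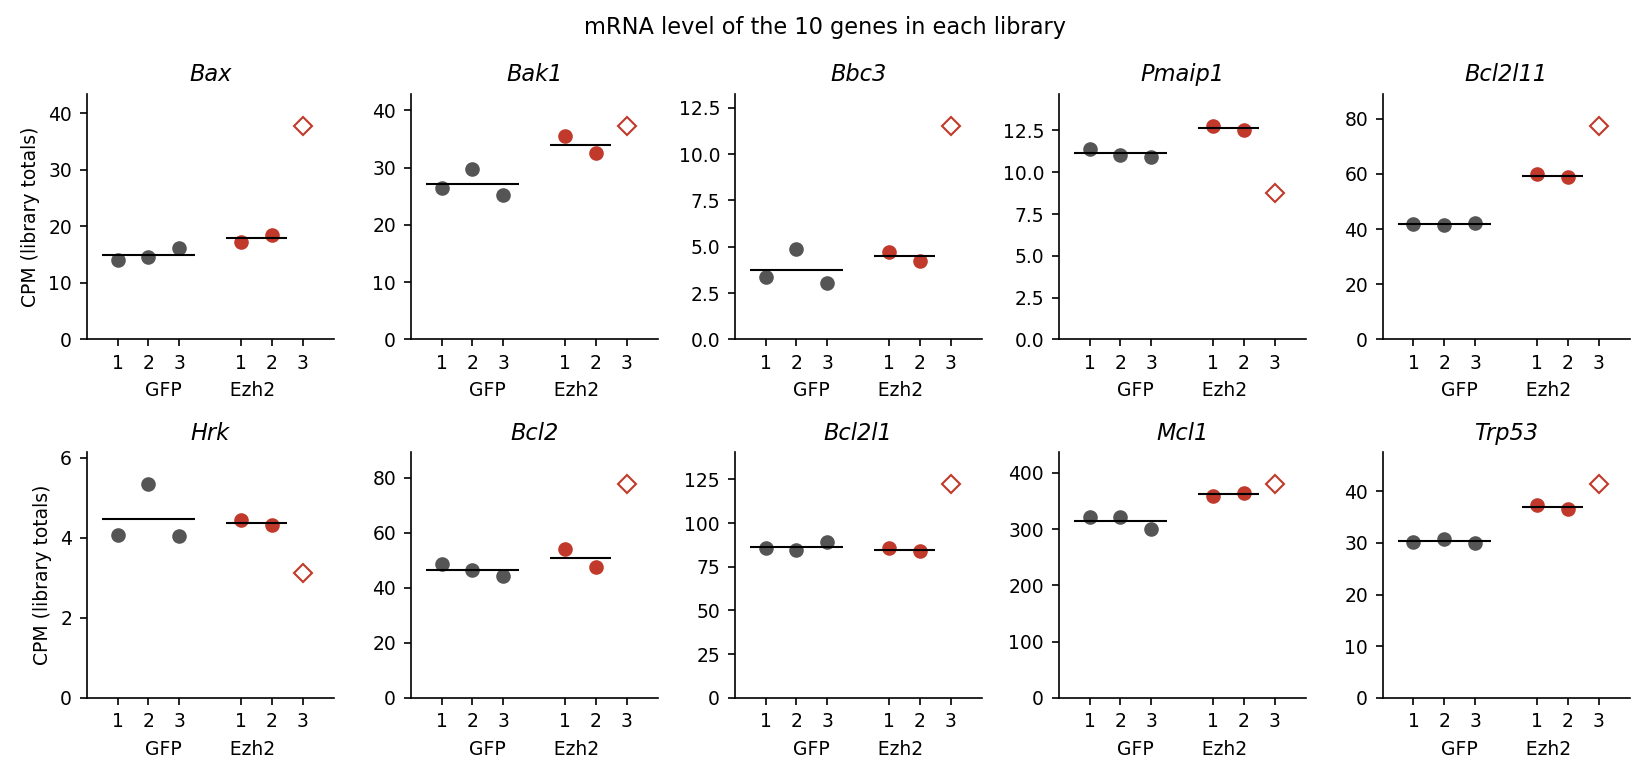
CPM (y axis, from 0) of each of the 10 genes in GFP replicates 1 to 3 (gray) and Ezh2 replicates 1 to 3 (red). Lines are means of GFP libraries and of Ezh2 replicates 1 and 2, and the open diamond is Ezh2 replicate 3. *Bcl2l11* separated most widely from its GFP values, whereas *Bax*, *Bbc3* and *Bcl2* were high mainly in Ezh2 replicate 3.

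Among the BH3-only genes, *Bcl2l11* had the largest fitted difference with 5 libraries, whereas with all 6 that of *Bbc3* was larger and did not pass the test. The protein of *Bcl2l11*, Bim, binds all pro-survival relatives and can activate Bax directly. *Bcl2l11* (ENSMUSG00000027381, chr2:128126038-128162547) measured 41.8, 41.6 and 42.0 CPM in the GFP libraries and 59.8, 58.8 and 77.5 CPM in the Ezh2 libraries, from 1278 to 2789 counts. The GFP values were nearly equal, all Ezh2 values lay above them, and Ezh2 replicate 3 was the highest. The log2 fold change was 0.52 (SE 0.07, 1.43-fold, adjusted p = 1.46e-06 in edgeR) with 5 libraries, just under the 1.5-fold limit. With all 6 it was 0.69 (SE 0.13, 1.61-fold, adjusted p = 0.0172), which made it the 1 of 10 members called there, beside 2.52% of 19732 tested genes. That call was lost without GFP replicate 1, 2 or 3 of the 6 (adjusted p of 0.111, 0.0966 and 0.118 in edgeR), with log2 fold changes of 0.69 each time. Far fewer genes passed in general in these 3 fits, at 112, 217 and 135 of all tested, against 1141 with all 6.

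The other BH3-only genes did not pass the test. *Bbc3* (chr7:16308393-16318205), a p53-inducible killer, measured 3.37, 4.87 and 3.03 CPM in GFP libraries and 4.69, 4.25 and 11.5 CPM in Ezh2 libraries. GFP replicate 2 exceeded Ezh2 replicates 1 and 2, so the groups overlapped, and only Ezh2 replicate 3 was clearly higher. Its log2 fold change was 0.26 (SE 0.22, adjusted p = 0.480) with 5 libraries and 0.92 (SE 0.44, adjusted p = 0.257) with 6. *Pmaip1* (chr18:66458533-66465565), whose product antagonizes Mcl-1, measured 11.4, 11.1 and 10.9 CPM in GFP libraries and 12.8, 12.5 and 8.76 CPM in Ezh2 libraries. It was slightly above GFP in 2 Ezh2 libraries and below GFP in the third, with a log2 fold change of 0.20 (SE 0.12, adjusted p = 0.284) with 5 libraries and 0.06 (SE 0.15, adjusted p = 0.817) with 6. *Hrk* (chr5:118164648-118189478), a neuronal BH3-only gene whose product binds Bcl-2 and Bcl-xL, measured 4.06, 5.34 and 4.04 CPM in GFP libraries and 4.44, 4.31 and 3.11 CPM in Ezh2 libraries. The groups overlapped, and the log2 fold change was -0.02 (SE 0.21, adjusted p = 0.960) with 5 libraries and -0.14 (SE 0.21, adjusted p = 0.692) with 6. *Bbc3* had 93 to 415 counts and *Hrk* 112 to 169, the fewest of the members, and with 5 libraries their standard errors were the largest of the 10.

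Of the pore formers, *Bak1* rose and *Bax* did not pass the test. *Bak1* (ENSMUSG00000057789, chr17:27019810-27029009) measured 26.4, 29.8 and 25.2 CPM in GFP libraries and 35.4, 32.5 and 37.3 CPM in Ezh2 libraries. The groups did not overlap, and the log2 fold change was 0.33 (SE 0.09, adjusted p = 0.00570) with 5 libraries and 0.41 (SE 0.11, adjusted p = 0.0578) with 6. Without Ezh2 replicate 1 the adjusted p for *Bak1* was 0.0703. Its exons overlap those of the antisense gene *Ggnbp1*, and whether strand was used in counting is not given in the sources used here. *Bax* (ENSMUSG00000003873, chr7:45461697-45466898), the pore former on which RGC death after ONC is known to depend, measured 14.1, 14.5 and 16.2 CPM in GFP libraries and 17.3, 18.5 and 37.8 CPM in Ezh2 libraries. Its groups did not overlap either, but Ezh2 replicate 3 held 2.11 times the mean of the other Ezh2 libraries. The log2 fold change was 0.27 (SE 0.11, adjusted p = 0.0732) with 5 libraries and 0.77 (SE 0.34, adjusted p = 0.233) with 6, where its size moved by more than 1.5 times through 1 library. *Bax* shares exon sequence with *Gm45808* on the same strand, so its reads could be divided between them.

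Among the pro-survival genes, the most abundant of them rose slightly. *Mcl1* (ENSMUSG00000038612, chr3:95658788-95663176), which encodes a short-lived guard of Bak and Bim, measured 321, 322 and 300 CPM in GFP libraries and 360, 365 and 380 CPM in Ezh2 libraries. No Ezh2 value reached down to a GFP value. The log2 fold change of *Mcl1* was 0.22 (SE 0.05, 1.16-fold, adjusted p = 0.00218) with 5 libraries and 0.27 (SE 0.07, adjusted p = 0.0522) with 6. *Bcl2* measured 48.5, 46.6 and 44.2 CPM in GFP libraries and 54.2, 47.6 and 77.7 CPM in Ezh2 libraries. Ezh2 replicate 2 lay within the GFP range and Ezh2 replicate 3 far above it, and the log2 fold change was 0.14 (SE 0.07, adjusted p = 0.195), or 0.41 (SE 0.19, adjusted p = 0.246) with 6 libraries. *Bcl2* (chr1:106538178-106714274) also overlaps an antisense gene, *D630008O14Rik*. *Bcl2l1* (chr2:152780668-152831728), whose product Bcl-xL is the main pro-survival protein of adult RGCs, measured 85.8, 84.7 and 89.0 CPM in GFP libraries and 85.7, 84.1 and 122 CPM in Ezh2 libraries. The first 5 values lay within 84.1 to 89.0 CPM, and the log2 fold change was -0.02 (SE 0.06, adjusted p = 0.891) with 5 libraries and 0.22 (SE 0.16, adjusted p = 0.443) with 6, so its sign turned with Ezh2 replicate 3.

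*Trp53* rose as well. It (ENSMUSG00000059552, chr11:69580359-69591873) measured 30.3, 30.8 and 30.0 CPM in GFP libraries and 37.3, 36.6 and 41.4 CPM in Ezh2 libraries. The GFP values lay within 1 CPM of each other and below every Ezh2 value. The log2 fold change of *Trp53* was 0.29 (SE 0.08, 1.22-fold, adjusted p = 0.00726) with 5 libraries and 0.38 (SE 0.10, adjusted p = 0.0517) with 6. Since p53 is held down mainly through degradation of the protein, the mRNA level does not give its activity.

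**Figure D2:**
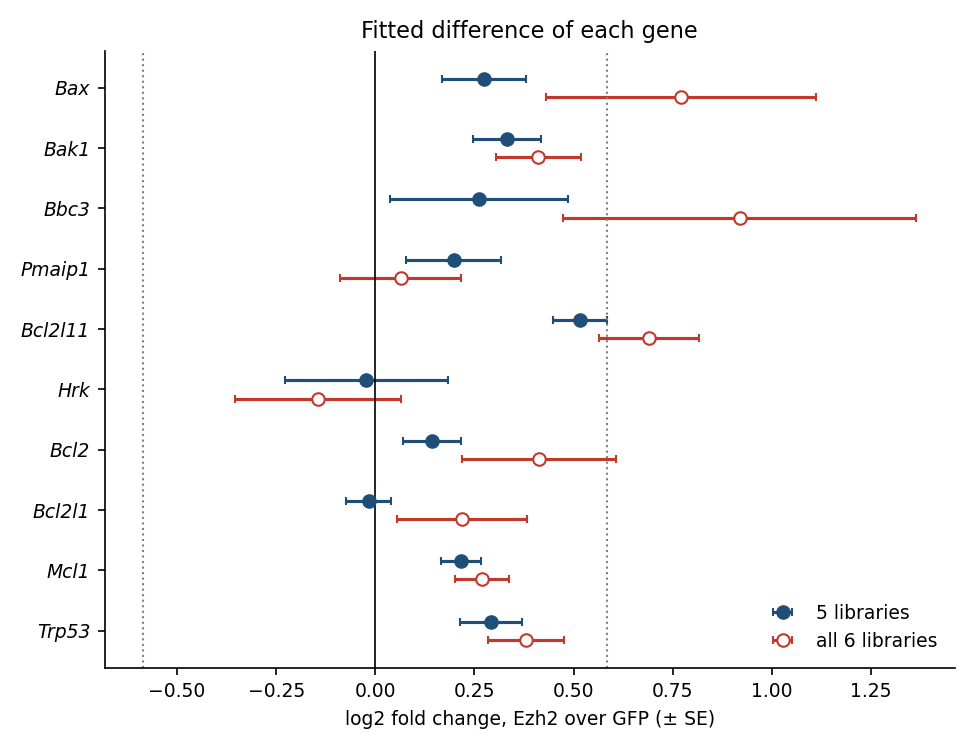
Log2 fold change, Ezh2 over GFP, with its standard error (x axis), for each member (y axis), from 5 libraries (filled) and from all 6 (open). Dotted lines mark a 1.5-fold change, and with 5 libraries the largest value, 0.52 for *Bcl2l11*, lies inside it. The errors of *Bax*, *Bbc3* and *Bcl2* widened when Ezh2 replicate 3 was added.

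With all 6 libraries, *Bcl2l11* was the 1 of 10 members past the adjusted p, and 3.08% of tested genes passed it in that direction. *Trp53*, *Mcl1* and *Bak1* missed it at 0.0517, 0.0522 and 0.0578 in edgeR, although their fitted differences were larger than with 5 libraries. Groups of 3 did not overlap for 5 of the 10, all higher (*Bcl2l11*, *Bak1*, *Bax*, *Mcl1* and *Trp53*), compared to 14.9% of tested genes. The median log2 fold change of the members was then 0.40, beside 0.01 for all tested genes.

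Pro-death and pro-survival genes were then set against each other. With 5 libraries, 2 of 6 pro-death genes (*Bcl2l11* and *Bak1*) and 1 of 3 pro-survival genes (*Mcl1*) passed the adjusted p. All were higher, beside 10.1% of all tested genes in that direction. The medians were 0.27 and 0.14 on the log2 scale. With all 6 libraries 1 of 6 pro-death and 0 of 3 pro-survival genes passed, beside 3.08% of tested genes. A balance was computed in each library as the mean log2 CPM of the 6 pro-death genes minus that of the 3 pro-survival genes. It was -3.24, -3.03 and -3.19 in the GFP libraries and -3.01, -2.99 and -3.08 in the Ezh2 libraries. Ezh2 replicates 1 and 2 lay above every GFP library, though only narrowly above GFP replicate 2, and Ezh2 replicate 3 lay within the GFP range. The mean was -3.15 ± 0.11 (SD, n = 3) in GFP libraries and -3.002 ± 0.014 (SD, n = 2) in Ezh2 replicates 1 and 2, a difference of 0.15, or 0.13 with Ezh2 replicate 3. The difference was smaller than the range of the GFP libraries, and no test was made on this score. In summed CPM, the pro-death genes came to 101 to 107 in GFP libraries and 131 to 176 in Ezh2 libraries, and the pro-survival genes to 433 to 455 and 497 to 580. Both sums were higher in every Ezh2 library than in every GFP library.

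**Figure D3:**
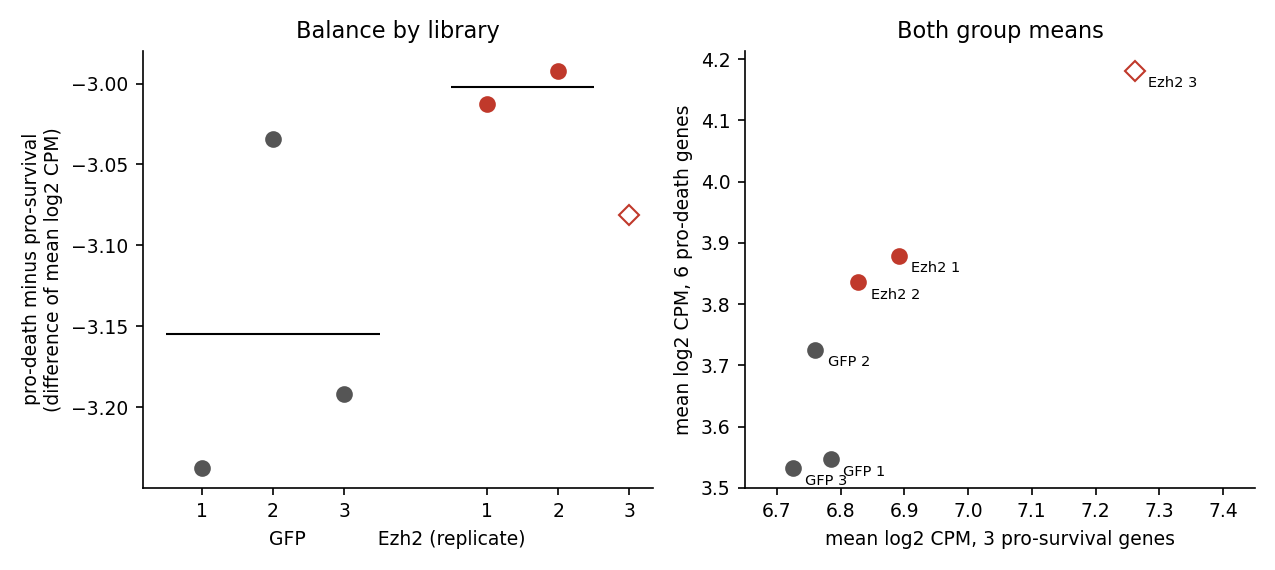
Left, the balance (difference of mean log2 CPM, pro-death minus pro-survival) in each library, with lines at the means of GFP libraries and of Ezh2 replicates 1 and 2. Right, mean log2 CPM of the 6 pro-death genes (y axis) against that of the 3 pro-survival genes (x axis). Both means were higher in every Ezh2 library (red; open diamond, replicate 3) than in every GFP library (gray), whereas the balances of the groups overlapped once Ezh2 replicate 3 was counted.

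Other relatives in the family did not pass the test. Of 14 further Bcl2 relatives, including the BH3-only *Bid*, *Bad*, *Bik* and *Bmf* and the pro-survival *Bcl2l2*, 0 passed the adjusted p in edgeR in either direction. Among all 20241 tested genes, 3605 passed it. Of the 14, 3 had an unadjusted p under 0.05, a share of 21.4% beside 29.3% of all tested genes. The median log2 fold change of the 14 was 0.09, with a range of -0.78 to 0.47. *Bcl2a1a*, *Bcl2a1b* and *Bcl2a1d* are near-identical copies among which reads could be divided.

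Of 20 listed targets of p53, 12 passed the adjusted p with 5 libraries, all of them higher, beside 10.1% of all tested genes, and 4 were called at 1.5-fold, beside 3.8% of all tested genes in either direction. The 12 came down to 5 without Ezh2 replicate 2 and to between 9 and 11 without any other of the 5 libraries, and to 8 with DESeq2. The other 8 did not pass and lay between -0.22 (*Perp*) and 0.17 (*Sesn2*). They were *Mdm2* (0.07), *Zmat3*, *Ei24*, *Rrm2b*, *Tigar* and *Plk2* besides those named. The median log2 fold change of the list was 0.19. The list held none of the 10 members, so the p53-inducible *Bbc3*, which did not pass (adjusted p = 0.480 in edgeR), was not counted in it. *Gdf15*, a secreted stress cytokine, had 8, 10 and 5 counts in GFP libraries and 26, 41 and 54 in Ezh2 libraries, with a log2 fold change of 2.00 (SE 0.55, adjusted p = 0.00901). *Eda2r*, a receptor of the TNF receptor family, had 47, 58 and 57 counts against 111, 124 and 152, a log2 fold change of 1.01 (SE 0.26, adjusted p = 0.00476). These are the highest folds of the list and come from its lowest counts. *Cdkn1a*, the cell cycle inhibitor p21 whose p53 element is printed above, had 260, 276 and 252 counts against 429, 481 and 409, a log2 fold change of 0.69 (SE 0.13, adjusted p = 0.000163). *Btg2*, an antiproliferative gene, had 3890 to 4512 counts against 6820 to 7564, a log2 fold change of 0.60 (SE 0.05, adjusted p = 1.64e-09). All 4 were also called with all 6 libraries, where 5 of the 20 passed the adjusted p. In that fit *Btg2* reached an adjusted p of 0.00249 in edgeR, and the adjusted p of the other 3 lay between 0.0205 and 0.0235. Without Ezh2 replicate 2 the adjusted p of *Gdf15* was 0.232 and that of *Eda2r* 0.0545 in the 5-library comparison, and *Btg2* fell just under 1.5-fold without GFP replicate 3 (0.55) or Ezh2 replicate 1 (0.57). Of 9 relatives and regulators of p53, 0 were higher and 1 was lower past the adjusted p. Among all 20241 tested genes, 10.1% were higher and 1555 were lower. The lower gene was *Atr*, a DNA damage kinase, at -0.21 (SE 0.07, adjusted p = 0.0316 in edgeR). *Atr* missed the adjusted p without GFP replicate 2 or GFP replicate 3 (0.125 and 0.0626 in edgeR).

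Of 14 caspase, apoptosome and IAP genes, 3 passed the adjusted p with 5 libraries, all higher, beside 10.1% of all tested genes, and 0 were called. They were *Casp8* (0.47, SE 0.07, adjusted p = 2.05e-05), the initiator of the death receptor route, *Birc3* (0.42, SE 0.07, adjusted p = 8.73e-05), an inhibitor of apoptosis, and *Apaf1* (0.21, SE 0.06, adjusted p = 0.0126), the scaffold of the apoptosome. *Apaf1* missed the adjusted p without GFP replicate 2 (0.0621) or Ezh2 replicate 1 (0.0539). With all 6 libraries 0 of 14 passed the adjusted p in edgeR and 6 had an unadjusted p under 0.05, as did 24.5% of all tested genes. The log2 fold changes of *Casp8* and *Birc3* were then 0.80 (SE 0.24) and 0.85 (SE 0.31), moved by over 1.5 times through Ezh2 replicate 3. Upstream of the BH3-only genes, 1 of 11 kinases and factors was called, beside 3.8% of all tested genes in either direction. That gene was *Jun* (0.61, SE 0.05, adjusted p = 2.59e-10 in edgeR). It had 6877 to 7403 counts in GFP libraries and 11692 to 12237 in Ezh2 libraries. *Map3k13* (-0.37, SE 0.10, adjusted p = 0.00637), the kinase LZK of the axon injury response, and *Mapk10* (-0.21, SE 0.06, adjusted p = 0.00910), the neuronal JNK3, fell. Among all 20241 tested genes, 1555 were lower past the adjusted p. The other 8 genes of the list, *Map3k12* and *Foxo3* among them, did not pass. *Map3k13* missed the adjusted p without Ezh2 replicate 2 (0.105), as did *Mapk10* without GFP replicate 3 (0.0704) or Ezh2 replicate 2 (0.133). *Jun* was under 1.5-fold without GFP replicate 3 (0.58) or Ezh2 replicate 1 (0.56). *Jun* stands in a list of regeneration genes that the study chose on these libraries, so its rise is not independent evidence. Exons of *Cdkn1a*, *Jun*, *Map3k13* and *Atr* overlap antisense genes, and those of *Map3k13* and *Atr* also genes on the same strand, so their counts are uncertain to that extent.

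**Figure D4:**
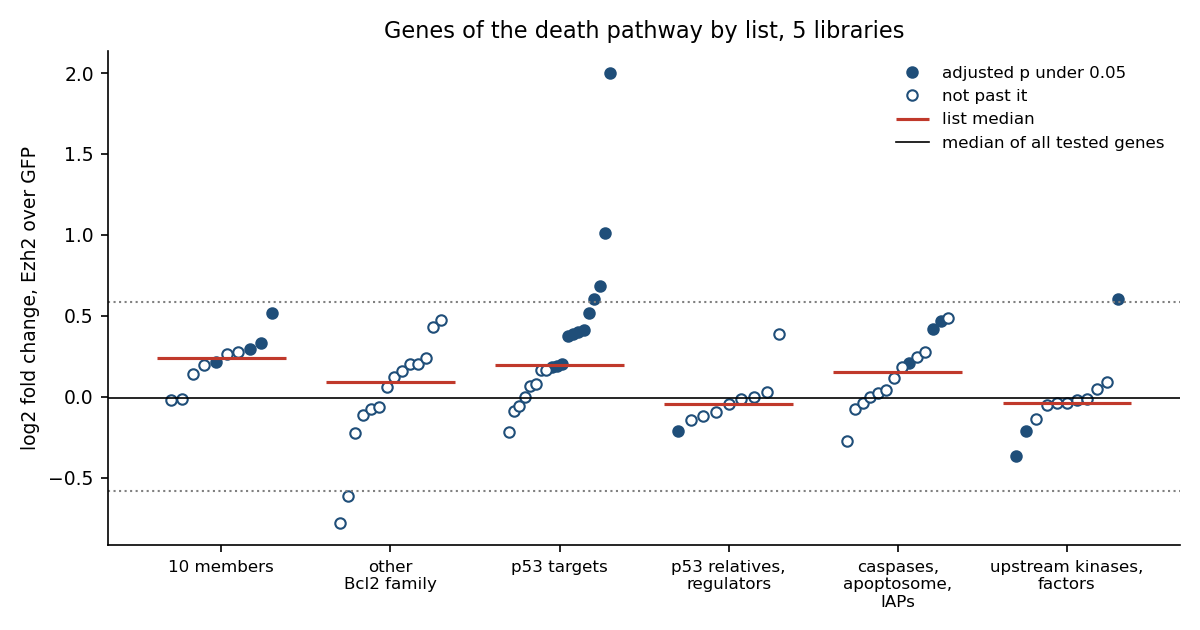
Log2 fold change, Ezh2 over GFP with 5 libraries (y axis), of every tested gene in 6 lists (x axis), filled where the adjusted p was under 0.05. Red lines are list medians, the black line is the median of all tested genes (-0.01) and dotted lines mark a 1.5-fold change. Filled points sat only above 0 among the members (4 of 10), the p53 targets (12 of 20) and the caspase list (3 of 14), beside 10.1% of all tested genes. Of 11 upstream kinases and factors, 1 was filled above 0 and 2 below. Of 9 p53 relatives and regulators, 1 was filled below 0. No filled point stood among the other Bcl2 relatives.

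Markers of other cells moved in the same libraries. Among all 20241 genes tested with 5 libraries, 10.1% were higher past the adjusted p and 1555 were lower. Of 8 T cell genes, 7 passed the adjusted p with 5 libraries, all higher, and their summed level was 402 to 428 CPM in GFP libraries and 515 to 849 CPM in Ezh2 libraries, with the maximum in Ezh2 replicate 3, where every member but *Pmaip1* and *Hrk* was also highest. Of 6 microglia and macrophage genes, 4 passed, all higher, with 844 to 948 CPM in GFP libraries and 781 to 1113 CPM in Ezh2 libraries, the lowest in Ezh2 replicate 3. The 4 cone genes and 3 of 4 rod genes were higher. Cone sums were 10.6 to 13.5 CPM in GFP libraries and 34.7, 23.3 and 13.9 CPM in Ezh2 libraries. Rod sums were 347 to 411 CPM and 635, 674 and 375 CPM, so Ezh2 replicate 3 lay within the GFP range. All 3 Müller glia genes were lower, at 12871 to 13347 CPM in GFP libraries and 7694 to 9830 CPM in Ezh2 libraries. With all 6 libraries, 2 of 8 T cell, 1 of 6 microglia and macrophage, 0 of 4 cone and 0 of 4 rod genes were higher past the adjusted p. In that fit 2 of 3 Müller glia genes were lower. Among all 19732 genes tested there, 3.08% were higher and 533 were lower. Of 7 tested RGC genes, 2 were higher (*Thy1* and *Nefl*), with 125 to 129 CPM against 144 to 161 CPM over the 8 listed. The RGC sum was also highest in Ezh2 replicate 3. Most of it was *Thy1*, the gene of the sort antigen, at 114 CPM there against 109 and 98.9 CPM in Ezh2 replicates 1 and 2. *Ezh2* itself was highest in Ezh2 replicate 3 too, at 105 CPM against 78.0 and 65.3 CPM in Ezh2 replicates 1 and 2. B and plasma cell genes (1 of 5 higher), bipolar genes (0 of 3), endothelial genes (0 of 3) and amacrine genes (2 of 4 lower) made up the rest. Many of the 10 members are used by lymphocytes and microglia as well as by neurons. The part of these shifts in the differences of *Bcl2l11*, *Bak1*, *Mcl1*, *Trp53* and the p53 targets was not tested.

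**Figure D5:**
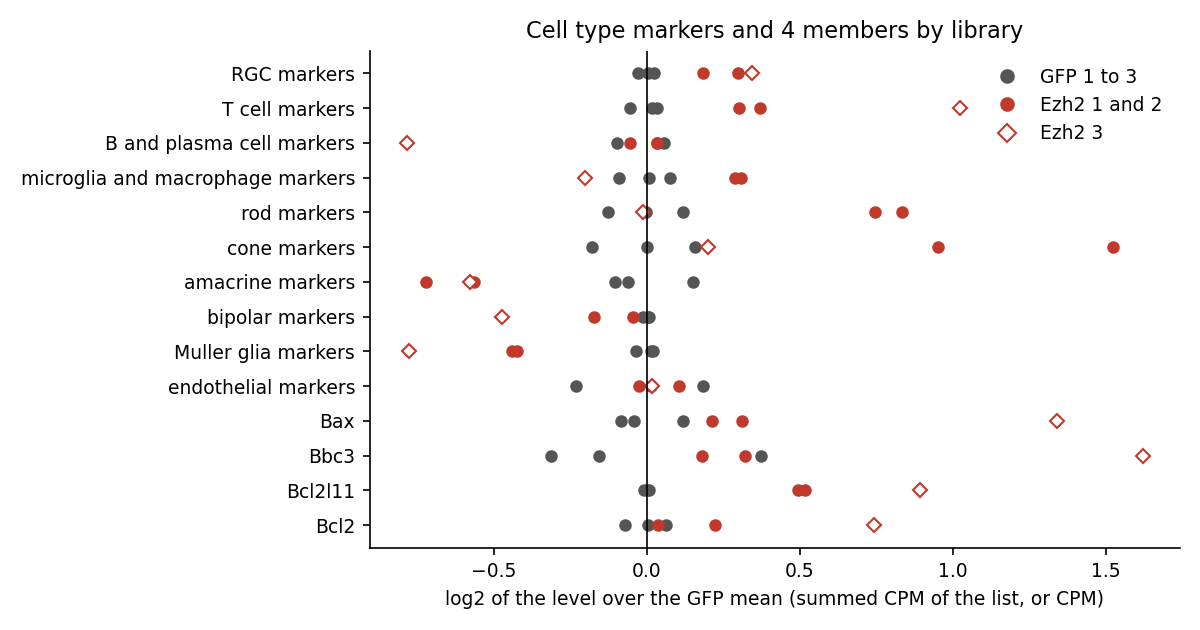
Log2 of the level over the GFP mean (x axis) in each library, for the summed CPM of 10 marker lists and the CPM of 4 members (y axis). Gray points are GFP libraries, red points Ezh2 replicates 1 and 2, and open diamonds Ezh2 replicate 3. T cell markers, RGC markers and all 4 members have their highest value in Ezh2 replicate 3. Markers of Müller glia, bipolar cells, B and plasma cells, and microglia and macrophages have their lowest value there. Of the members drawn, *Bax*, *Bbc3* and *Bcl2* are those flagged for a high value in that library. *Pmaip1* and *Hrk*, which are not drawn, were lowest in it.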

How the data were processed

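Libraries were made from total RNA with a stranded kit. The submitters' processing notes name STAR 2.7.0d and GRCm38, and the counting program, annotation release and strand setting are not given in the sources used here. The authors deposited unnormalized counts (6 libraries). Of 55573 Ensembl identifiers, 55480 matched GENCODE M21 (GRCm38) for symbols, coordinates and exon lengths. CPM used library totals, and a count of 0 allows 3 counts (0.0834 to 0.0981 CPM, counting error only).

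Counts were filtered with filterByExpr, scaled by TMM and fitted on group alone with the robust quasi-likelihood test of edgeR 4.0.16 in R 4.3.3. P values were two-sided, adjusted by Benjamini-Hochberg over all tested genes. Calls needed the study's thresholds, a 1.5-fold change and an adjusted p below 0.05. Standard errors came from the F statistic. For the balance, a prior count of 2 was added before taking log2 CPM. Of each other list, at most 4 genes past the adjusted p were named, by size of change. A result among the pathway genes is not reported here. The members and lists, and the robust option, were chosen with earlier results of these data known.

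The fits were repeated with all 6 libraries, without each library, with a replicate block, and with DESeq2 1.42.0, RLE factors, library totals, no filter and, chosen after seeing the data, the fit without the robust option. The fit was tested on simulated data. Pictures were drawn with matplotlib 3.10.9.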

Additional observations from a re-analysis of the deposited data

Results flagged for a closer look

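Values of 3 members were flagged because Ezh2 replicate 3, a library that the main comparison does not use, exceeded every other library and held over 1.5 times the mean of Ezh2 replicates 1 and 2. *Bax* stood at 37.8 CPM there, 2.11 times that mean. *Bbc3* stood at 11.5 CPM, 2.58 times that mean. *Bcl2* stood at 77.7 CPM, 1.53 times that mean. The same library held 848.7 CPM of T cell markers, against 515 and 539 CPM in the other Ezh2 libraries. It also held the most CPM of *Ezh2* (105, against 65.3 and 78.0) and of RGC markers (161, against 144 and 156). *Thy1*, the gene of the sort antigen, made up 114 CPM of that RGC sum, against 98.9 and 109 CPM. The part of the T cell markers, the RGC markers and *Ezh2* in the 3 values was not tested.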

How the results depend on the processing

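With 5 libraries, DESeq2, RLE factors, library totals, no filter and the fit without the robust option left 0 members called and 4 past the adjusted p, and all 10 members kept their sign and side of the threshold. With all 6 libraries 1 member was called and 1 passed the adjusted p. Replicate numbers did not pair the libraries, since deviations of same-numbered libraries correlated at -0.02 to -0.0045. With the replicate block, 2 members passed the adjusted p (*Bcl2l11* and *Trp53*) and 2 other pathway genes were called, and with the block in all 6 libraries 1 member was called and 1 passed. Leaving out each library gave 0 to 1 members called, 0 to 4 past the adjusted p and 2 to 5 other pathway genes called, against 5. The lowest counts came without a GFP library of the 6, where fewer genes passed in general (112 to 217 of all tested, against 1141). In the 5 libraries, the count of other pathway genes called was 3 without GFP replicate 3, Ezh2 replicate 1 or Ezh2 replicate 2. DESeq2 gave no adjusted p for *Gdf15*.

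Signs turned for members near 0, none of them past the adjusted p. *Bcl2l1* was 0.22 with all 6 libraries, 0.0041 with the replicate block and 0.19 with the block in 6, -0.032 to 0.0031 with a library of the 5 left out and 0.20 to 0.32 with a library of the 6 left out. *Hrk* was -0.094 to 0.12 with a library of the 5 left out, the highest without GFP replicate 2, and 0.0030 without it of the 6. *Pmaip1* was -0.011 and -0.0077 without Ezh2 replicate 1 or 2 of the 6. Outside the members, *Atr*, which was -0.21 and past the adjusted p with 5 libraries, turned to 0.0057 without Ezh2 replicate 1 of the 6. The difference in balance was 0.11 to 0.21 with a library of the 5 left out and 0.24 without *Hrk* and *Pmaip1*. The causes were not tested.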
